A study of Mus musculus with 67 samples.

Results

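The cytosolic ribosomal protein genes encode the proteins of the ribosome that translates nuclear transcripts. They were taken from a table of gene expression in mouse liver as the genes whose symbols have the pattern Rpl or Rps, a number and at most 1 of the letters a, x, l or y, together with Rplp0, Rplp1, Rplp2, Rpsa and Rps4x. Of 45808 genes in the table, 81 met this rule, 49 of the large subunit (Rpl, with the 3 stalk proteins) and 32 of the small subunit (Rps). Measured were polyA RNA libraries of liver from C57BL/6 mice, 24 weeks old and fed a high-fat diet for 12 weeks, 67 libraries in 8 groups. Mice were WT, lacked Bmal1 (symbol Arntl, a clock activator) in liver (Bmal1LKO), lacked both Cry1 and Cry2, clock repressors (CryDKO; the labels name no tissue), or lacked Nr1d1 and Nr1d2, which encode Rev-erb alpha and Rev-erb beta, in liver (ReverbLDKO). Each was fed ad libitum or within a restricted daily window. WT had 12 ad libitum and 11 restricted libraries, Bmal1LKO had 6 per feeding, and CryDKO and ReverbLDKO had 8 per feeding. Times are zeitgeber times (ZT, in hours). WT had 2 libraries at each of ZT4, 8, 12, 16, 20 and 24, apart from a single restricted library at ZT12. Bmal1LKO had 1 library at each of those times, and the other mutants had 1 every 3 hours from ZT3 to ZT24. The sources used here do not give the feeding hours, the promoter that drives the liver knockouts, or whether libraries came from separate animals. The p-values therefore measure the spread between these libraries, which may be technical. In whole liver, fewer cells of a type and less RNA per cell cannot be told apart.

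A ribosome has a small subunit, which reads the mRNA, and a large subunit, which joins amino acids. The stalk of the large subunit, built on Rplp0 with Rplp1 and Rplp2, recruits elongation factors. Ribosomal protein mRNAs begin with a run of pyrimidines called a TOP start, through which the kinase complex mTORC1 controls their translation. Liver makes large amounts of serum proteins and adjusts its ribosome content to feeding. Mammalian genomes hold many reverse-transcribed copies of ribosomal protein mRNAs. Most of these are processed pseudogenes, and short reads may match both a gene and its copies.

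The coding sequences of Rps6 and Rplp1 are shown beside a copy of each, since the level at which a member was listed went with how much of it is repeated elsewhere. Rps6 encodes the small subunit protein that S6 kinase phosphorylates. Its coding bases 1 to 60 and those of the processed pseudogene Rps6-ps4 (chr2:75191073-75191822, GRCm38) are the same, as are all 750 aligned bases. The copy of Rplp1 is Gm10073 (chr8:106572966-106573461), and capitals mark the 2 bases that differ in bases 1 to 60, of 5 differences over 345 aligned bases (98.6% identity). Sequences run 5′ to 3′.
Rps6: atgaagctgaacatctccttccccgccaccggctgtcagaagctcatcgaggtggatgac
Rps6-ps4: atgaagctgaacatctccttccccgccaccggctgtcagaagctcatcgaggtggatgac
Rplp1: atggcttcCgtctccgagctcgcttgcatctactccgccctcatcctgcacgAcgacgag
Gm10073: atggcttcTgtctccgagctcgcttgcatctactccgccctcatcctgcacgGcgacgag

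The listed levels of the members differed widely. Levels are FPKM as deposited (fragments scaled by gene length and by a factor for each library). They are per length, so members can be set side by side, apart from reads that may be lost to copies. Rpl4, a large subunit protein of the exit tunnel, had the highest median over the 67 libraries, 329.6 FPKM with a range of 232.7 to 585.7. Rplp1 had a median of 290.0 FPKM, and Rpl8, which lies near the peptidyl transferase centre, had 277. Their ranges were wide, 14.4 to 1025 FPKM for Rplp1 and 21.9 to 1303 for Rpl8, and both spanned that of Rpl4. The small subunit protein Rps15 had a median of 155 FPKM. Rpl32 was at 132 and Rps27l at 120.2 FPKM. Rplp0 was at 89.1, Rplp2 at 25.6 and Rpsa, the laminin receptor protein of the small subunit, at 1.85 FPKM. Rps6 had a median of 0.229 FPKM, which was 4.98 reads recovered from the values (0.995 to 14 reads). Rpl24, which bridges the subunits, was at 0.126 FPKM or 1.99 reads. The members at the top differed from Rps6 and Rpl24 by far more than the spread over libraries.

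Of the 81 members, 61 averaged at least 1 FPKM across the 67 libraries, the level asked of a gene to be tested, as did 9958 of all genes. The 20 that missed it included Rpl3l, Rpl9, Rpl10l, Rpl11, Rpl12, Rpl19, Rpl21, Rpl23a, Rpl24, Rpl28, Rpl36a, Rpl38, Rpl39l, Rps6, Rps13, Rps16, Rps27, Rps27a and Rps29. Just outside stood Rpl12 with a mean of 0.842 FPKM and Rpl11 with 0.801. Just inside stood Rps23 with 1.16, Rpl27 with 1.34 and Rps7 with 1.57. A mean of at least 1 FPKM in every group was met by 54 of the 61, and the exceptions were Rpl3, Rpl10a, Rpl27, Rpl30, Rpl36, Rps7 and Rps23. Counts of tested members therefore leave out those listed lowest, and the exceptions passed through the groups where they were higher. The paralogs restricted to other tissues were near 0. Rpl3l, the muscle form of Rpl3, had a median of 0.0441 FPKM. Rpl10l and Rpl39l, both testis forms, were at 0 in the median library, with highest values of 0.0982 and 0.247 FPKM. Rps27l, a paralog of Rps27, was at 120.2 FPKM against 0.601 for Rps27. Of the coding stretches of 50 bases, 100% in Rps27 and 49.0% in Rps27l also occur in another annotated gene. These 2 levels can therefore not be compared as amounts of mRNA. Rps4l is annotated as a transcribed processed pseudogene.

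Members with little repeated coding sequence were listed high, and members whose coding sequence is repeated throughout were listed low. For each member, the share of coding stretches of 50 bases that also occur in another annotated gene was computed. Without Rpl3l, Rpl10l, Rpl39l and Rps4l, 77 members remained. Of these, 27 shared every stretch, and their median level was 0.656 FPKM, from 0.229 for Rps6 to 24.8 for Rpl41. Among 17 members that shared over 90% but not all it was 5.10 FPKM, from 0.126 for Rpl24 to 62.1 for Rpl13a. The 22 that shared over 50% and up to 90% had a median of 27.8 FPKM, with Rplp1 at the top. The 11 that shared up to 50% had a median of 122 FPKM, from 29.3 to 330 for Rpl4. The number tested in these classes was 12, 15, 22 and 11. Spearman's rho of level against share was -0.86 over the 77 genes, which are not independent replicates, and that against exon length was -0.02. The sources used here do not say how reads that match several places were counted. The level of a member with a high share can therefore not be read as the amount of its mRNA. The copies were listed low as well. Rps6-ps4 was at 0 FPKM in the median library with a highest value of 0.114, and Gm10073 was at 0.189 with a highest value of 1.00.

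**Figure D1:**
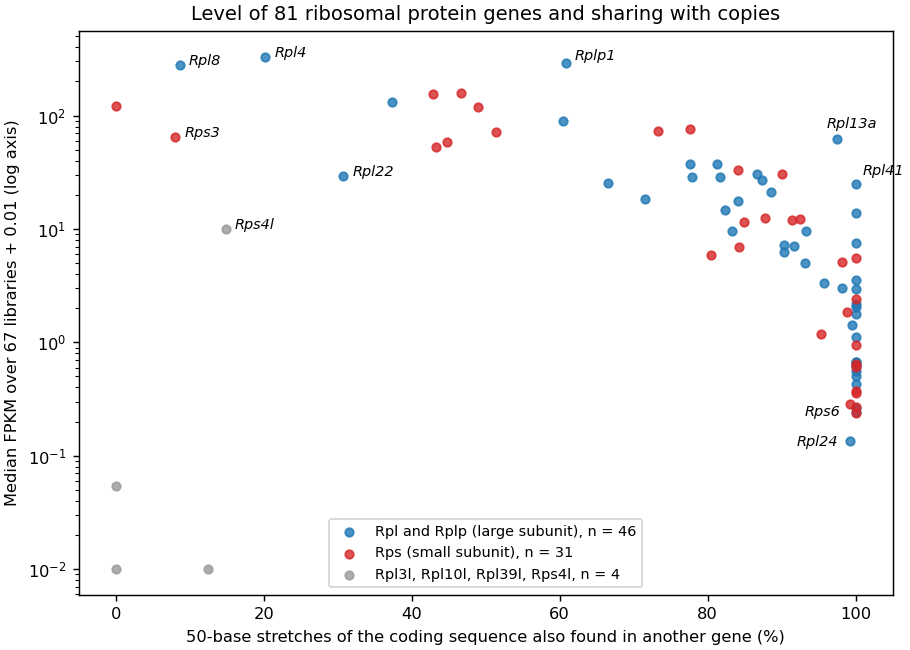
Each point is a ribosomal protein gene, placed by the percentage of its coding stretches of 50 bases found in another annotated gene (x) and its median FPKM plus 0.01 over 67 libraries (y, log scale), coloured by subunit, with the 4 grey points Rpl3l, Rpl10l, Rpl39l and Rps4l. The points fall from Rpl4 at 329.6 FPKM on the left to Rps6 at 0.229 FPKM at full sharing, with Rpl41 the highest at full sharing and Rpl13a the highest among those over 90%.

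The symbol pattern left out 7 other ribosomal proteins or paralogs of them. Rps3a1, of the small subunit, had a median of 33.5 FPKM. Fau, which encodes a fusion of a ubiquitin-like protein with Rps30, was at 0.701 FPKM. Gnb2l1, which encodes the scaffold RACK1 on the small subunit, was at 68.9 FPKM. The paralogs Rpl7l1, Rpl36al and Rpl22l1 were at 29.3, 19.3 and 10.3 FPKM.

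Bases around the transcription start are shown for the 4 best expressed members found in the promoter table used here and for Rps6, because a pyrimidine run, which the rule did not use, lay there in more members than other genes. The windows run from 15 bases before the start to 15 after it (RefSeq, GRCm38.p6), and capitals mark the longest run of C and T. They are Rpl4 (chr9:64173372-64173401, plus strand), Rps15 (chr10:80292416-80292445, plus), Rps27l (chr9:66946071-66946100, plus), Rplp0 (chr5:115559452-115559481, plus) and Rps6 (chr4:86857353-86857382, minus). The run was 11 bases long in Rpl4, 3 in Rps15, 9 in Rps27l, 5 in Rplp0 and 10 in Rps6.
Rpl4: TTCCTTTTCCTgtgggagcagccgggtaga
Rps15: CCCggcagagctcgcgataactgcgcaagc
Rps27l: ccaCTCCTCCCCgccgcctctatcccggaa
Rplp0: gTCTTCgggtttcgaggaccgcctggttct
Rps6: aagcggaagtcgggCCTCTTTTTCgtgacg

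Of the 81 members, 60 matched a gene of the promoter table. A run of C and T of at least 8 bases lay in these 30 bases in 26 of the 60 (43.3%), against 13.9% of all 27025 genes. The longest runs were 21 bases in Rpl7a, 19 in Rpl27a, 18 in Rpl34 and Rpl35 and 17 in Rpl15, and the median was 7 bases against 5 over all genes. Such a run crossed the annotated start in 16 members (26.7%, against 4.44%). In the promoter windows of 300 bases (250 before to 50 after the start, both strands), TCTCGCGA was found in 10 members (16.7%, against 1.13% of all genes). The ETS core CCGGAAG was found in 25 members (41.7%, against 9.93%) and CTTTCC in 32 (53.3%, against 29.3%). AAGATGGC, the YY1 motif, was in 5 members (8.33%, against 3.19%) and TATAAA in 6 (10%, against 15.7%). None of these motifs contains another. A match describes the letters of the window and no binding.

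Before the comparisons, libraries and labels were examined. Depth recovered from the values was 9.10 to 36.0 M reads per library, and group medians were 12.8 to 20.1 M. The hepatocyte marker Alb had a median of 32415 FPKM, and the summed hepatocyte list was 31206 to 90180 FPKM in every library. Sums over marker lists of other cell types are given beside some contrasts. In ad libitum Bmal1LKO and ReverbLDKO, medians of the stellate list were 151 and 140 FPKM, against 115 in ad libitum WT. Those of the bile duct list were 58.5 and 40.7 against 38.1, and of the adipocyte list 0.596 and 0.560 against 14.9. The immune list was at 282 and 250 against 295 and the endothelial list at 21.2 and 23.6 against 19.5. The erythroid list was at 451 and 679 against 518. The part of these lists was not tested. The deleted genes were present in the libraries labelled knockout. Arntl was at 2.00 to 7.09 FPKM in Bmal1LKO and 0.416 to 12.6 in WT, with medians of 3.18 and 7.29. Cry1 was at 6.65 to 14.3 in CryDKO and 1.66 to 23.0 in WT, and Cry2 at 1.94 to 3.56 and 1.23 to 8.01. Nr1d1 and Nr1d2 were higher in the libraries labelled ReverbLDKO, with medians of 31.7 against 2.18 FPKM in WT for Nr1d1 (4.82 to 71.8 and 0.122 to 33.3) and 17.9 against 8.56 for Nr1d2. These values cover exons outside any deleted part, so they do not check the labels, and mutant directions are those of libraries labelled so.

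The members moved together from library to library, and most widely in WT. Their summed FPKM was 1158 to 20113 per library, or 0.275 to 1.83% of all FPKM. Group medians were 3941 in ad libitum WT, 2362 in restricted WT, 3484 and 4623 in ad libitum and restricted Bmal1LKO, 2400 and 2556 in CryDKO, and 2355 and 2528 in ReverbLDKO. The SD of a member's log2(FPKM + 1) over the libraries of a group had a median over members of 0.67 for WT fed ad libitum and 0.68 for WT under restriction, where that of all genes was 0.35 and 0.37. In ad libitum CryDKO it was 0.15, as for all genes. Once the members' median in each library was taken off, the SD in WT was 0.27 ad libitum and 0.48 restricted. Most of the spread in ad libitum WT was therefore common to the members. It included ZT16 replicate 2, whose members lay at a median of 2.33 above their own means. The other libraries of that group were at -0.62 to 0.63, and the SD without ZT16 replicate 2 was not computed.

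Individual WT libraries stood apart. Ad libitum WT ZT16 replicate 2 had the summed value of 20113 FPKM, where the next highest library had 7005. Its members lay at a median of 2.33 above their own means on the log2 scale. It also held RNA of pancreas, with the colipase gene Clps at 324 FPKM and the elastase gene Cela2a at 347, against medians of 0 and 0.406 in the other libraries. The highest values in any other library were 661 and 443 FPKM. The summed pancreas list without Cela1 was at least 10 FPKM in 10 libraries, among them all 4 WT libraries of ZT16. Ad libitum WT ZT16 replicate 1 had more of it than replicate 2, at 3413 against 1221 FPKM, while its members summed to only 4712 FPKM. Restricted WT ZT24 replicate 1 was unlike its group, with Rplp1 at 370 FPKM where the other 10 had 14.4 to 70.1, and with 4.26% of FPKM from mitochondrial genes against a group median of 10.1%. Restricted WT ZT12 replicate 2 had the lowest summed value, 1158 FPKM. The slope of a library's expression on GC content, in log2 per 10 percentage points, also differed between the feedings of WT. It had medians of 0.30 (ad libitum WT) and -0.54 (restricted WT), and of -0.05 to 0.15 in mutant groups. Within restricted WT it also split by replicate number, at -0.38 to 0.05 in the 5 libraries of replicate 1 and -1.16 to -0.54 in the 6 of replicate 2. Their shares of FPKM from mitochondrial genes were 4.26 to 9.38% and 10.1 to 13.9%. In ad libitum WT the replicate numbers overlapped, with slopes of 0.24 to 0.53 and -0.19 to 0.35 and mitochondrial shares of 4.11 to 6.73% and 4.38 to 7.28%. Leaving out a WT replicate number therefore also changes the GC slope and mitochondrial share of the libraries compared, and the part of these was not tested. Values corrected in each library for GC content and exon length are given beside some of the members' results that this moves. They are not given for genes outside the members, so a result without a corrected value may also move.

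**Figure D2:**
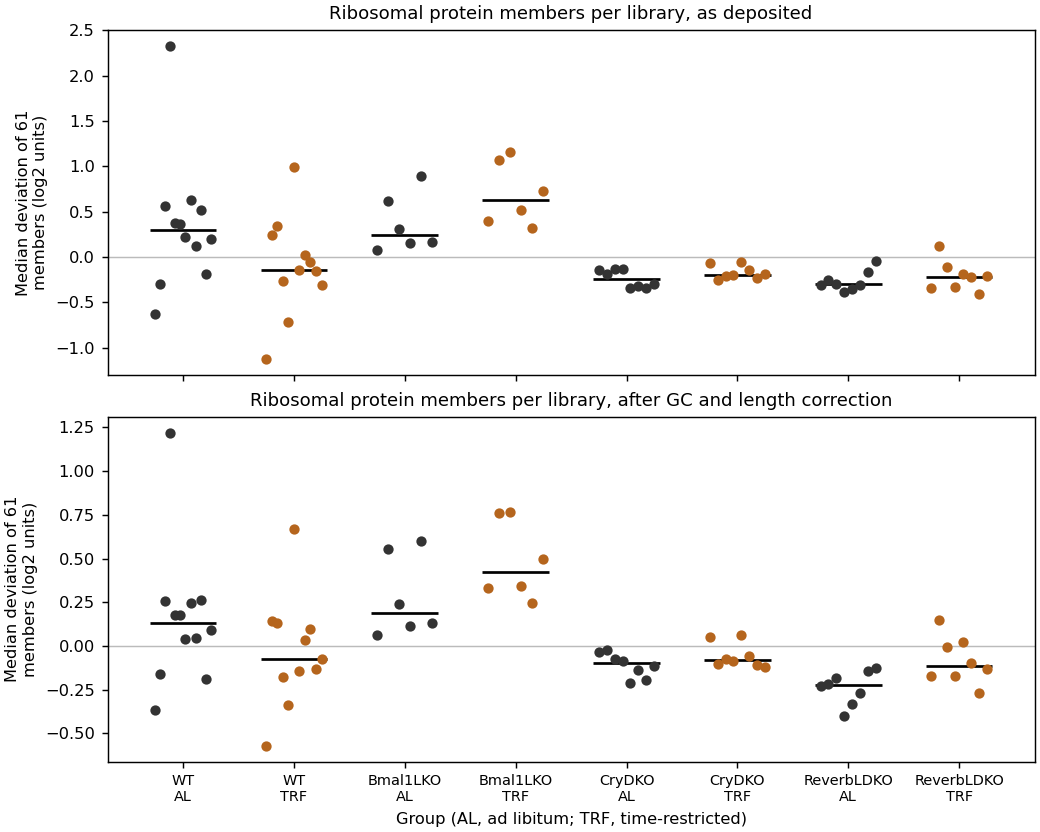
Each point is a library, placed by the median over the 61 tested members of log2(FPKM + 1) minus the member's mean over all libraries, as deposited and after the GC and length correction, by group, with a line at the group's median. Ad libitum WT ZT16 replicate 2 stands at 2.33 as deposited and 1.22 corrected, and the CryDKO and ReverbLDKO groups are narrow.

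Restricted feeding in WT went with lower levels of all 3 stalk genes and of many GC-rich members, while a smaller set rose. Of the 61 tested members, 42 passed an adjusted p of 0.05 in limma with Benjamini-Hochberg adjustment over all genes. That is near the background, since 64.0% of all tested genes passed. By direction, 31 fell, where 35.4% of all genes fell, and 11 rose, where 28.6% of all genes rose. The median difference (restricted minus ad libitum, log2) was -0.54 over members and -0.03 over all genes. The direction of the median depended on the WT replicate number. With replicate 2 left out, 14 members rose and 16 fell with a median of 0.06, and with replicate 1 left out 5 rose and 36 fell with a median of -0.98. After the GC and length correction 13 rose and 24 fell, with a median of -0.19.

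Marker lists of other cell types also moved with feeding in WT. The 3 adipocyte markers summed to 0.404 to 45.4 FPKM (median 14.9) ad libitum and 0.147 to 6.79 (median 0.932) restricted. Nearly all of that was Cfd (medians 14.9 and 0.777 FPKM), while Adipoq was at 0 in 5 of 12 and 4 of 11 libraries and Retn at 0 in 7 and 6. The 5 stellate markers went from 99.9 to 197 FPKM (median 115) to 141 to 270 (median 169), mostly Dcn, and the 3 bile duct markers from 22.8 to 81.4 (median 38.1) to 39.3 to 178 (median 64.6), mostly Spp1. The 5 erythroid markers went from 148 to 3085 FPKM (median 518) to 131 to 890 (median 230). No stellate, bile duct or erythroid marker was at 0 in a WT library. The part of these lists in the results on members was not tested.

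All 3 stalk genes fell. Rplp1 ranged from 295 to 1025 FPKM (median 472) in the 12 ad libitum WT libraries and from 14.4 to 370 (median 34.2) in the 11 restricted ones. The groups overlapped only through restricted ZT24 replicate 1. The difference was -3.54 ± 0.23 (SE, adjusted p = 1.56e-17), and it was -4.34 without replicate 1, -2.68 without replicate 2 and -2.66 after correction. Rplp1 also moved against Rpl4, its neighbour in level. The ratio of their FPKM was 1.25 to 1.75 in ad libitum WT, 0.0548 to 0.751 in restricted WT and 0.559 to 1.47 in the mutant groups. Rplp2, the partner of Rplp1 in the stalk, went from a median of 37.2 FPKM (21.9 to 118) to 11.1 (3.11 to 42.5), a fall of 1.76 ± 0.20. Its difference was -2.39 without replicate 1, -1.05 without replicate 2 and -1.15 after correction. Rplp0, which anchors Rplp1 and Rplp2, went from 178 FPKM (74.1 to 944) to 65.4 (15.5 to 250), a fall of 1.41 ± 0.25. After correction the difference of Rplp0 was -0.98. Without replicate 2 the difference of Rplp0 was -0.40 and did not pass (adjusted p = 0.129). The groups overlapped for both.

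Among the 33 other large subunit members 15 fell and 7 rose, with a median of -0.24. Rpl29 went from 11.3 FPKM (6.61 to 21.2) to 1.11 (0 to 12.2). The difference was -2.48 ± 0.30 and became -1.20 after correction. Rpl8 went from 398 FPKM (226 to 1303) to 107 (21.9 to 567), a difference of -1.94 ± 0.25 that became -0.92. Both kept their call after the correction, and for both the groups overlapped. Without replicate 2 the difference was -1.74 for Rpl29 and -0.73 for Rpl8, and without replicate 1 it was -3.19 and -2.95. Rpl27 was the only member of the large subunit with every restricted library below every ad libitum one, at 0.265 to 0.904 against 1.06 to 5.68 FPKM. Its difference of -0.93 ± 0.12 did not pass after correction, at -0.23 (adjusted p = 0.0765). The mean of Rpl27 was under 1 FPKM in restricted WT, so it was tested through groups where it was higher, ad libitum WT among them. Rpl15 rose by 0.84 ± 0.17, from 10 FPKM (6.15 to 34.7) to 19.1 (13.8 to 49.8), and by 0.52 after correction. Rpl27a rose by 0.64 ± 0.19, from 8.45 FPKM (3.16 to 33.4) to 12.0 (8.81 to 33.4). It did not pass without replicate 1, at 0.51 (adjusted p = 0.0779). Rpl4 was unlike these, with 233 to 586 FPKM ad libitum and 262 to 494 restricted. Its difference was 0.05 ± 0.09 and did not pass, and was -0.17 without replicate 1 and 0.29 without replicate 2 (adjusted p = 0.193 and 0.0204).

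Of 25 small subunit members 13 fell and 4 rose, with a median of -0.54. Rps4l, the pseudogene copy of Rps4x, went from 19.0 FPKM (13.8 to 48.8) to 1.79 (0.545 to 11.5), with no overlap of the groups. It fell by 2.75 ± 0.22, and by 1.64 after correction. Rps4x itself, encoded on the X chromosome, rose by 0.68 ± 0.10, from 28.6 FPKM (19.3 to 66.8) to 45.6 (35.7 to 78.3). The gene and its copy thus differed in direction. Rps21 went from 96.2 FPKM (37.6 to 682) to 22.3 (2.79 to 124), a fall of 2.36 ± 0.31. Rps15 went from 283 FPKM (130 to 2105) to 62.9 (6.82 to 435), a difference of -2.31 ± 0.34 that became -0.82 after correction. Without replicate 2 the difference was -1.27 for Rps21 and -0.86 for Rps15, and without replicate 1 it was -3.34 and -3.53. Rps23, a protein of the decoding centre, rose by 1.14 ± 0.14, from 0.361 FPKM (0 to 1.47) to 2.22 (1.15 to 4.89). Both of its levels are low, and its coding sequence is shared throughout. Its mean was under 1 FPKM in ad libitum WT, so it was tested through groups where it was higher, restricted WT among them. Rpsa went from 2.05 FPKM (1.00 to 6.58) to 0.886 (0.326 to 3.44) and fell by 0.65 ± 0.14 (-0.39 without replicate 2). Over all 61 members, 2 (Rpl27 and Rps4l) had every restricted library below every ad libitum one, where 1.64% of all genes did, and none had the reverse, where 0.834% did.

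The members' differences followed their GC content. Of 16 members with up to 48% GC in their exons 9 rose and none fell, with a median of 0.38. Of 26 with over 48 and up to 54% GC 2 rose and 15 fell, with a median of -0.66. Of 19 with over 54% none rose and 16 fell, with a median of -1.27. After the correction these medians were 0.11, -0.47 and -0.55. Spearman's rho against GC content was -0.76 over 61 genes and -0.42 after correction, as a description. Rpl14, with a difference of -0.56 ± 0.16, turned to 0.26 (adjusted p = 0.0449), and Rpl30, with 0.53 ± 0.12, went to -0.03 (adjusted p = 0.854). Neither kept its call without one of the WT replicate numbers, at -0.13 for Rpl14 without replicate 2 and 0.32 for Rpl30 without replicate 1. Both were chosen after their values were seen. The part of the GC slope and of the mitochondrial share in the differences that remained was not tested.

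**Figure D3:**
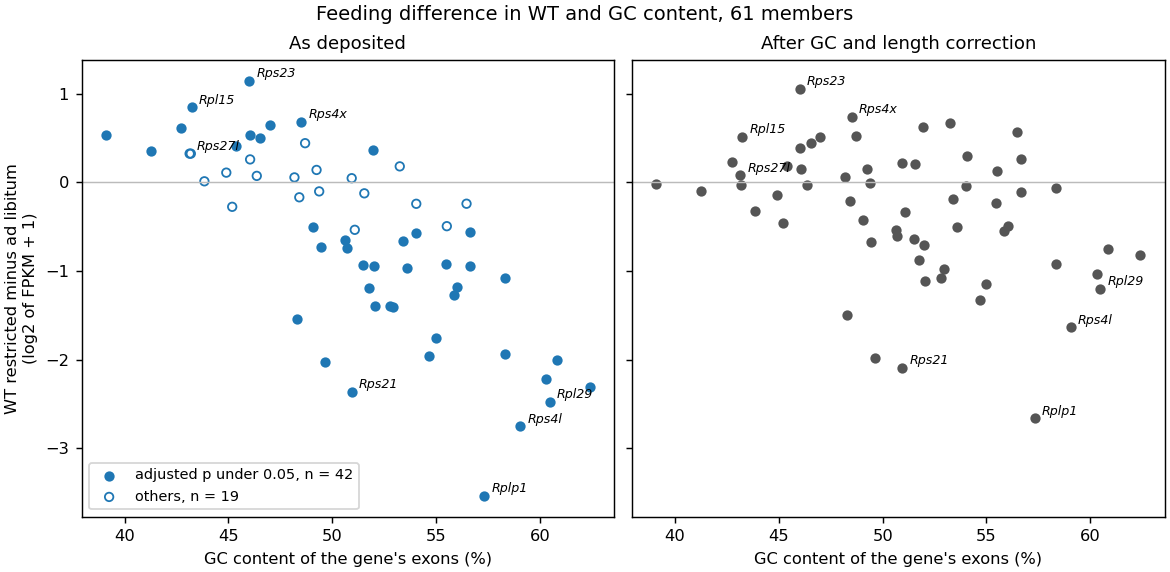
Each point is 1 of 61 members, placed by the GC content of its exons in percent (x) and its difference between restricted and ad libitum WT on the log2(FPKM + 1) scale (y), as deposited and after the GC and length correction. Filled blue points passed an adjusted p of 0.05 as deposited (42) and grey points are all members after correction, whatever their call; the members lie lower at high GC, and the medians of the GC classes go from 0.38 to -1.27 as deposited and from 0.11 to -0.55 corrected.

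The feeding difference depended on genotype for many members, as it did for many of all genes. An F test of the 3 differences between mutant and WT feeding effects passed for 37 of 61 members (60.7%), where 47.1% of all genes passed. It takes in the WT feeding difference, whose median depended on the WT replicate number. The F test was not repeated without a replicate number. The smallest adjusted p was that of Rplp1 (7.66e-13), followed by Rps4l (5.17e-10), Rpl36 (1.48e-07), Rplp2 (1.98e-07) and Rpl29 (3.75e-07). Rpl4 (0.350) did not pass. In Bmal1LKO none of the 61 members passed in limma, where 0.0402% of all genes did, and 2 had an unadjusted p under 0.05. Their differences were 0.11 to 0.57, all above 0, with a median of 0.33 that was 0.22 after correction. In CryDKO none passed, where 0.0201% of all genes did, and 1 had an unadjusted p under 0.05, with a median of 0.07. With limma's library weights 7 passed in Bmal1LKO and 1 in CryDKO. The fit takes each gene's spread from all groups together, and the median SD of members was wider in WT than in the mutants. Missing calls in a mutant therefore do not show that its members kept their levels. The difference of Rplp1 was 0.20 ± 0.31 in Bmal1LKO, 0.28 ± 0.27 in CryDKO and -0.34 ± 0.27 in ReverbLDKO.

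In ReverbLDKO 1 member passed, where 3.33% of all genes did (1.08% higher and 2.25% lower), and 7 had an unadjusted p under 0.05. It was Rps4x, at 19.2 to 24.7 FPKM (median 22.4) ad libitum and 27.2 to 36.2 (median 29.5) restricted. These ranges did not overlap, and the share of all genes with this was not computed. Its rise was 0.43 ± 0.12 (adjusted p = 0.0350), and it did not pass without the time terms (adjusted p = 0.0623) or in 12 of 16 fits with 1 library left out. With only the 2 ReverbLDKO groups in the fit 16 members rose and 9 fell, and with library weights 14 rose and 15 fell.

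Few members passed between ad libitum Bmal1LKO and WT. Of 61 members 4 passed, where 24.9% of all genes did, and the median difference (mutant minus WT) was -0.04. Rps23 rose by 0.73 ± 0.16 (1.02 against 0.361 FPKM, medians) and Rpl30 by 0.62 ± 0.14 (13.5 against 8.49). Rps28, of the small subunit head, fell by 0.71 ± 0.20 (5.49 against 8.43 FPKM) and Rps4l by 0.75 ± 0.26 (11.5 against 19.0). The groups overlapped for Rps23, Rpl30 and Rps28. The mean of Rps23 was under 1 FPKM in ad libitum WT. The call on Rps4l was lost after correction (-0.38, adjusted p = 0.141), which also took Rpl30 to 0.38, and with every library scaled to the same FPKM sum (-0.45, adjusted p = 0.103). Without ad libitum WT ZT16 replicate 2 the count was 12, 11 of them higher, and the median 0.15, and without the libraries with pancreas genes it was 19. With every library scaled to the same FPKM sum, 21 rose and 1 fell and the median of all genes moved to 0.24, so the direction of the members against WT depended on the scaling.

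In ad libitum CryDKO, members of both subunits and the stalk were lower than in WT. Of 61 members 39 fell and 1 rose, where 30.7% of all genes fell and 55.4% passed. The median was -0.65 over members and -0.05 over all genes. After correction 23 fell and 7 rose, with a median of -0.30, and with every library scaled to the same FPKM sum 29 fell and 6 rose. Without ad libitum WT ZT16 replicate 2, 29 fell and 2 rose. By subunit, 19 of 33 large subunit members, 17 of 25 small subunit members and 3 of 3 stalk members fell. Every ad libitum CryDKO library lay below every ad libitum WT library for 8 members (Rpl3, Rpl29, Rpl30, Rplp0, Rplp1, Rps2, Rps4l and Rps19), where 4.72% of all genes had this. The erythroid list was higher in ad libitum CryDKO (median 1200 FPKM, against 518 in ad libitum WT and 679 in ad libitum ReverbLDKO) and the adipocyte list lower (median 0.218 FPKM, against 14.9 in WT and 0.560 in ReverbLDKO). The erythroid genes did not move as one. Hba-a1 had a median of 257 FPKM in ad libitum CryDKO against 61 in WT, while its near-identical neighbour Hba-a2 had 0.195 against 48.5, and Alas2 had 70.7 against 74.6. Hba-a2 was at 0 in 2 of the 8 CryDKO libraries, Adipoq in 4 and Retn in 7. The part of these lists was not tested.

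Rpl30, a large subunit protein that binds its own transcript in yeast, separated CryDKO from all other libraries. It lies at chr15:34440505-34443640 on the minus strand, and 616 of its 3020 exonic bases are overlapped by genes on the opposite strand. In the 16 CryDKO libraries it ranged from 0.514 to 1.04 FPKM (median 0.772). In the 51 other libraries it ranged from 5.79 to 20.7 (median 11.4). No other member had every CryDKO library below all others, which 0.321% of all genes had. In recovered reads these levels were 21.9 to 79.6 against 233 to 1226. Against WT it fell by 2.41 ± 0.13 ad libitum (adjusted p = 5.13e-21) and by 2.97 ± 0.13 under restricted feeding (adjusted p = 2.64e-24), contrasts that use different libraries. Of 16 genes that share its coding stretches, 10 copies in the table were summed, at 0 to 1.31 FPKM in CryDKO and 0 to 1.17 elsewhere. No test was made of these sums.

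Rpl3, which lies at the peptidyl transferase centre, was also lower in CryDKO. It had 0.332 to 0.741 FPKM (median 0.563) in ad libitum CryDKO and 3.39 to 24.0 (median 5.24) in ad libitum WT, a fall of 2.16 ± 0.20 (adjusted p = 2.54e-12). It lies at chr15:80077791-80091868 on the minus strand. Its 2 pseudogene copies in the table went the other way, from 0 to 1.07 FPKM (median 0.161) in the libraries of other genotypes to 0.719 to 1.55 (median 1.04) in CryDKO. These sums were not tested either.

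Rpl29 divided the CryDKO libraries into low and high ones. Of its 16 libraries 9 were at 0 to 0.344 FPKM and 7 at 3.12 to 10.9. Ad libitum, ZT3 to ZT18 were at or under 0.344 FPKM and ZT21 and ZT24 at 5.20 and 4.25. Restricted, ZT9, ZT12 and ZT21 were at or under 0.103 FPKM, and the other 5 libraries at 3.12 or more. Low and high libraries thus occurred under both feedings. Its fall against WT ad libitum was 2.90 ± 0.33 (adjusted p = 9.22e-10). After correction this difference was -2.28. The copies of Rpl29 in the table summed to at most 0.737 FPKM in CryDKO.

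Rplp0 ranged from 35.5 to 54.2 FPKM (median 40.4) in ad libitum CryDKO, against 74.1 to 944 in WT, and fell by 2.01 ± 0.28 (adjusted p = 1.03e-07). After correction its difference was -1.52. Rplp1 was at 218 to 291 FPKM against 295 to 1025, with no overlap. Rps23 was the member that rose, by 0.39 ± 0.15 (0.833 against 0.361 FPKM, medians). Its mean was under 1 FPKM in both of these groups, and it was tested through others. Its difference was 0.77 after correction and did not pass without WT replicate 1 (adjusted p = 0.258).

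**Figure D4:**
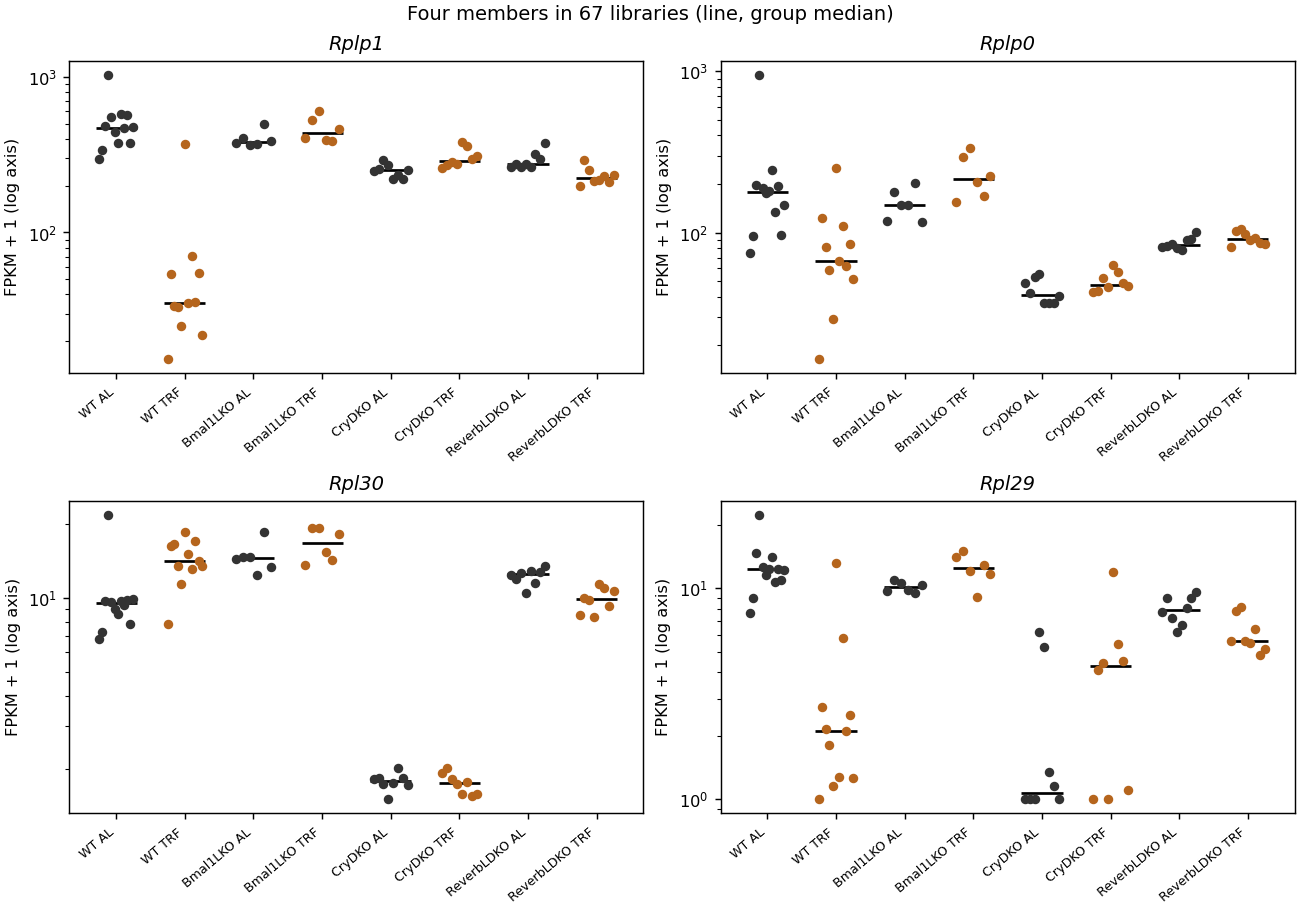
FPKM plus 1 (log scale) of Rplp1, Rplp0, Rpl30 and Rpl29 in the 67 libraries, each point a library, by group. Rplp1 is low in restricted WT except at 370 FPKM in 1 library, Rpl30 is at 1.04 FPKM or less in all 16 CryDKO libraries, and Rpl29 falls into low and high libraries in CryDKO.

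In ad libitum ReverbLDKO 39 members fell and 3 rose, where 23.9% of all genes fell and 44.7% passed. The median was -0.71 over members and -0.03 over all genes, and -0.37 after correction, with 32 falling and 3 rising. Without the libraries with pancreas genes, which hold 3 of the 8 ad libitum ReverbLDKO libraries and both WT libraries of ZT16, 24 fell and 3 rose, with a median of -0.47. Small subunit members fell in 19 of 25 cases, large subunit members in 17 of 33 and stalk members in 3 of 3. Rpl41, the smallest ribosomal protein, fell by 1.40 ± 0.31 (20.8 against 56.9 FPKM, medians). Rpl35a fell by 1.21 ± 0.25 (9.78 against 25.6), Rps25 by 1.16 ± 0.28 (2.77 against 6.79) and Rps19 by 1.15 ± 0.28 (5.68 against 12.3). Rps28 was the only member with no overlap, at 2.83 to 4.57 FPKM against 5.19 to 28.0 in WT, where 1.85% of all genes had this. Rpl15 rose by 0.51 ± 0.18, Rps23 by 0.46 ± 0.15 and Rpl30 by 0.36 ± 0.13, and none of the 3 passed without WT replicate 1 (adjusted p = 0.224, 0.141 and 0.211). The mean of Rps23 was under 1 FPKM in both groups compared. The ad libitum contrasts of the 3 mutants share the 12 WT libraries.

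Under restricted feeding the mutants differed from WT in other ways, against WT libraries that also enter the WT feeding contrast. In Bmal1LKO 37 members rose and 1 fell, where 27.8% of all genes rose and 39.1% passed, with a median of 0.80 over members and 0.06 over all genes. After correction 33 rose and 1 fell, with a median of 0.49. Rplp1 ranged from 387 to 606 FPKM (median 433) in restricted Bmal1LKO, above all 11 restricted WT libraries, and rose by 3.49 ± 0.28. The share of all genes with every library above in this contrast was not computed. Rps21 rose by 2.78 ± 0.38 (122 against 22.3 FPKM, medians). Rps10 rose by 2.51 ± 0.33 (29.1 against 4.26) and Rpl29 by 2.50 ± 0.37 (11.5 against 1.11), which became 1.61 and 1.49 after correction. Rps4x fell by 0.49 ± 0.12 (33.0 against 45.6 FPKM). The summed hepatocyte list was lower in Bmal1LKO, at medians of 36899 and 34188 FPKM in its 2 groups and 59605 and 58682 in WT. Alb carried most of this, at medians of 14753 against 31116 FPKM ad libitum and 11098 against 38806 restricted. Other genes of the list were higher in Bmal1LKO, among them G6pc (362 against 150 ad libitum) and Apob (401 against 134), and under restricted feeding Apoa1 (11153 against 7280) and F2 (441 against 290). Under restricted feeding the bile duct list had a median of 154 FPKM in Bmal1LKO against 64.6 in WT, mostly Spp1, and the erythroid list 641 against 230. No gene of either list was at 0 in these libraries. The part of these lists in the results was not tested.

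In restricted CryDKO 18 members rose and 20 fell, where 61.5% of all genes passed (33.7% higher and 27.8% lower), with a median of -0.12. Rplp1 rose by 2.90 ± 0.25 (287 against 34.2 FPKM, medians), Rps21 by 1.70 ± 0.34 (62.8 against 22.3), Rps4l by 1.51 ± 0.24 (8.81 against 1.79) and Rpl8 by 1.41 ± 0.28 (287 against 107). Rps4l was at 0.98 and Rpl8 at 0.92 after correction. Beside Rpl30, Rpl34 fell by 1.21 ± 0.29 (11.4 against 22.4 FPKM), Rpl3 by 1.17 ± 0.20 (0.593 against 2.77) and Rpl27a by 1.12 ± 0.21 (5.69 against 12.0). Without replicate 2 of WT, Rps21 was at 0.96, Rps4l at 0.82 and Rpl8 at 0.45, and without replicate 1 Rpl8 was at 2.17. The balance of directions depended on the WT replicate, with 10 rising and 27 falling without replicate 2 and 24 rising and 21 falling without replicate 1. The erythroid list had medians of 919 FPKM in restricted CryDKO and 650 in restricted ReverbLDKO, against 230 in restricted WT, and Hba-a2 was again low in CryDKO (0.241 against 4.81). The bile duct list had 24.4 and 41.4 FPKM against 64.6, the stellate list 125 and 127 against 169, and the adipocyte list 0.135 and 0.415 against 0.932. The part of these lists in both contrasts was not tested.

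In restricted ReverbLDKO 13 members rose and 17 fell, where 52.6% of all genes passed (28.3% higher and 24.2% lower), with a median of -0.02. Rplp1 rose by 2.49 ± 0.25 (222 against 34.2 FPKM, medians) and Rps4l by 1.67 ± 0.24 (9.51 against 1.79). Rpl29 rose by 1.47 ± 0.34 (4.61 against 1.11) and Rps15 by 1.42 ± 0.38 (156 against 62.9). Rpl29 and Rps15 were at 0.93 and 0.77 after correction, and neither passed without WT replicate 2, at 0.84 (adjusted p = 0.0940) and 0.30 (0.331). Rps4l was at 0.98 without it. Rps27l fell by 0.98 ± 0.28 (96.7 against 183 FPKM), Rpl10, a late-joining protein of the large subunit, by 0.97 ± 0.15 (1.24 against 2.98), Rpl17 by 0.92 ± 0.25 and Rpl27a by 0.87 ± 0.21. After correction Rps27l was at -0.38, Rpl10 at -0.63 and Rpl17 at -0.51. With every library scaled to the same FPKM sum 21 members rose and 17 fell, and without replicate 2 of WT 5 rose and 25 fell.

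**Figure D5:**
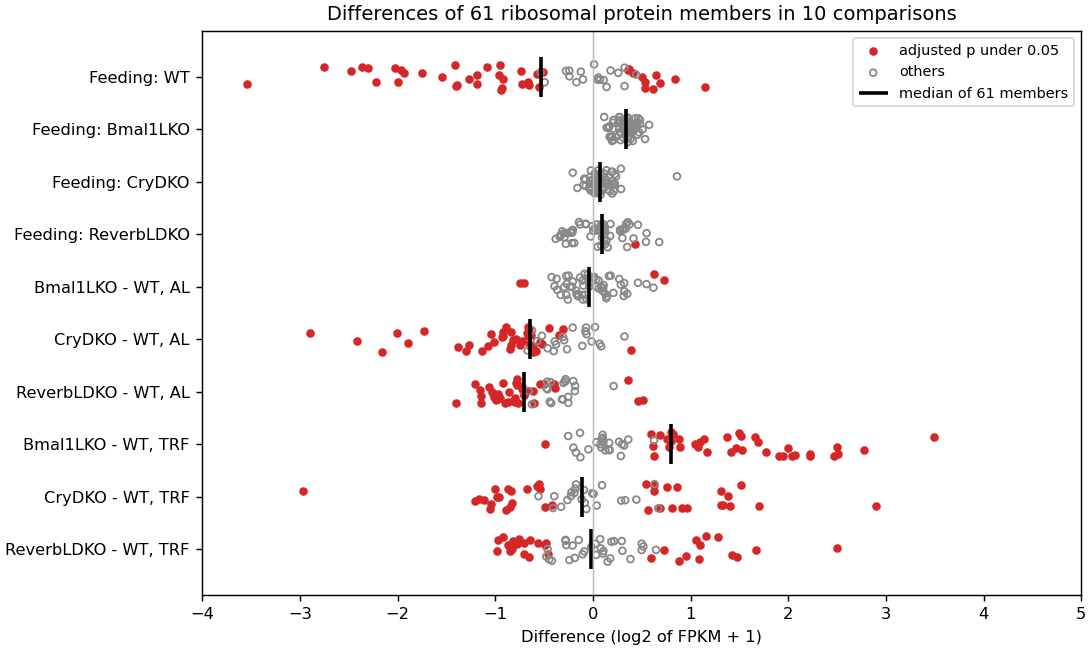
Each point is 1 of 61 members, placed by its difference on the log2(FPKM + 1) scale (x) in 10 comparisons (y) (feeding within each genotype, and each mutant minus WT within each feeding, AL for ad libitum and TRF for restricted), red where it passed an adjusted p of 0.05 and grey where not, with a black line at the median. Red points number 42 for WT feeding and 0, 0 and 1 for feeding in the mutants, and the lowest point is Rplp1 in WT feeding, Rpl29 in ad libitum CryDKO (-2.90) and Rpl30 in restricted CryDKO (-2.97).

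The number of members that passed a test for time of day depended on the libraries and weights used. In ad libitum WT 9 members passed a test of the cosine and sine of time, where 29.7% of all genes did, and all 9 peaked at ZT 18.1 to 19.6. Rps12 had an amplitude of 0.84 with a peak at ZT 18.1 (adjusted p = 0.0193), Rps3 0.83 at 19.2 (0.0310) and Rpl7 0.53 at 19.3 (0.0337). The others included Rpl13, Rpl35a, Rps4x, Rps24 and Rps27l. The count was 53 with library weights, 25 without the libraries with pancreas genes, 0 without ad libitum WT ZT4 replicate 1 and 21 without ZT20 replicate 1. It was also over 1.5 times away from 9 without ZT4 replicate 2 (15), ZT8 replicate 1 (1), ZT12 replicate 2 (5) or ZT24 replicate 2 (4), and the amplitude of Rps12 was 0.50 without ZT16 replicate 2 (adjusted p = 0.0852). In restricted WT 2 members passed, where 20% of all genes did. They were Rps26 (amplitude 0.87, peak at ZT 1.40, adjusted p = 0.0200) and Rplp1 (0.88, peak at ZT 0.64, adjusted p = 0.0232). The count was 40 without the libraries with pancreas genes, 12 with every library scaled to the same FPKM sum, and 5 with library weights. It was 22 without restricted ZT16 replicate 1, 4 to 6 without replicate 2 of ZT4, ZT20 or ZT24, and 0 without ZT4 replicate 1, ZT12 replicate 2 or ZT24 replicate 1. The amplitude of Rplp1 was 0.33 without restricted ZT24 replicate 1, and that of Rps26 was 0.49 without restricted ZT12 replicate 2. In the 6 mutant groups no member passed in limma, with at most 1 in a group at an unadjusted p under 0.05. The share of all genes that passed there was 0.0301 and 0.512% in ad libitum and restricted Bmal1LKO, 0.0502 and 7.23% in CryDKO and 0.0301 and 3.95% in ReverbLDKO. The fit takes each gene's spread from all groups together. The SD of members within a group had medians of 0.67 and 0.68 in WT and 0.15 to 0.37 in mutant groups. The tests in mutants therefore cannot show that members lacked a rhythm.

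Other genes of ribosome production were counted in the same contrasts, with values as deposited and no GC and length correction. Of all tested genes 28.6% rose and 35.4% fell with feeding in WT, 24.8% rose and 30.7% fell in ad libitum CryDKO, 20.8% and 23.9% in ad libitum ReverbLDKO, and 27.8% and 11.3% in restricted Bmal1LKO. Of 74 tested genes of the mitochondrial ribosome, 38 fell and 4 rose with restricted feeding in WT, with a median of -0.36. Mrpl4 fell by 1.91 ± 0.16 and Mrpl34 by 1.90 ± 0.17. In ad libitum CryDKO 68 of the 74 fell and none rose (median -0.66), and in ad libitum ReverbLDKO 59 fell and none rose (median -0.55). In restricted Bmal1LKO 32 rose and 2 fell. Of 17 translation factors with TOP starts 4 fell and 4 rose with feeding in WT (median 0.03). Tpt1, a TOP mRNA of a calcium-binding protein, fell by 2.42 ± 0.16, and Eef2, the translocation factor, by 1.30 ± 0.18. In ad libitum CryDKO 8 of the 17 fell and 3 rose, and in ad libitum ReverbLDKO 10 fell and 2 rose.

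Of 31 genes of ribosome assembly 12 rose and 12 fell with feeding in WT (median -0.02), where 64.0% of all genes passed and 28.6% rose and 35.4% fell. Bop1, of the PeBoW complex, fell by 1.28 ± 0.12, and Eif6, the subunit anti-association factor, by 1.13 ± 0.15. Ncl, which encodes nucleolin, rose by 1.07 ± 0.13 in ad libitum CryDKO, where 10 of the 31 fell and 5 rose. Of 11 genes of RNA polymerase I and its factors, which transcribe ribosomal RNA, 2 rose and 2 fell with feeding in WT, with Ubtf at -0.54 ± 0.08 and Rrn3 at 0.46 ± 0.11. Of 17 genes of mTORC1 and its control of TOP mRNAs 9 fell and 4 rose (median -0.48). Akt1s1, an inhibitor subunit of mTORC1, fell by 1.80 ± 0.11 and Eif4ebp1, the cap-binding inhibitor that mTORC1 phosphorylates, by 1.58 ± 0.20. Among the 5 tested ribosomal proteins that the symbol pattern left out, Rpl22l1 rose by 0.96 ± 0.25 and Gnb2l1 fell by 0.62 ± 0.25.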

How the data were processed

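PolyA RNA of liver was sequenced by the authors with a stranded mRNA kit from 1 ug of RNA, per the labels' protocols. The authors deposited FPKM values for all libraries in 1 table, and the submitters' processing notes name STAR, featureCounts, DESeq2 and GRCm38. The sources used here give no versions and no strand or multiple-match settings. From these values log2(FPKM + 1) was analysed with limma 3.58.1 in R 4.3.3, so differences of low genes are understated. The fit covered all 67 libraries and 9958 genes averaging at least 1 FPKM, with a level and a cosine and sine of ZT (period 24 hours) per group. It gave each gene the same spread in all groups. P-values were adjusted over all genes (Benjamini-Hochberg) and called under 0.05. Fits were tested on simulated data with independent genes and the same spread in all groups. The real libraries lack both traits, so that test does not cover unequal spread or genes that move together.

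GC content, exon length, coding sequences and copies came from GENCODE (GRCm38), matched by symbol for all 81 members, and promoters from RefSeq. The correction fitted splines with 5 degrees of freedom each for GC content and length. Low values (up to 20 reads) were whole multiples of 1 read's value in 84.2 to 88.3% of cases (tolerance 0.1), which gave the depth. Fully described members were the 5 with the highest median, the stalk genes, Rpsa and Rps6, the 4 that rose and the 4 that fell most per contrast, and the 3 with the smallest p per rhythm test. Some of these and other genes are not reported here. Members, lists and rule were chosen with earlier results of these data known. Alternatives were a pseudocount of 0.1, no filter, other scalings, library weights, fewer groups, no time terms, the correction, a replicate block and left-out libraries. Leaving out the library that stands apart, or the libraries with pancreas genes, was chosen after seeing the data.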

Additional observations from a re-analysis of the deposited data

Results flagged for a closer look

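The feeding effect differed between genotypes for 37 of 61 members by the F test given above, with limma and Benjamini-Hochberg adjustment, where 47.1% of all genes passed. The summed members and single members were also examined within each mutant group of 6 or 8 libraries, 66 cases in all. In 8 cases the highest library lay far from the nearest other one against the range of its group. The rule is one that chance meets in about 1 of 20 independent cases. Members move together and some libraries recur among the 8, so their number cannot be set against that rate. In ad libitum ReverbLDKO the library that stood apart was ZT9 for the summed members, at 2865 FPKM where the others had 2222 to 2513. The same library was highest for Rplp2 at 28.26 FPKM (others 18.48 to 21.95) and Rps15 at 180.2 (138.8 to 153.8). Its summed pancreas list without Cela1 was at 637 FPKM, and the part of this was not tested. In restricted ReverbLDKO it was ZT15, with the summed members at 3186 FPKM (2181 to 2614), Rpl8 at 352.3 (227.2 to 271.1) and Rps15 at 213.7 (135.5 to 160.1). In ad libitum Bmal1LKO, Rplp1 was at 494 FPKM at ZT4 (362.6 to 402.4). In restricted CryDKO, Rpl29 was at 10.94 FPKM at ZT24 (0 to 4.453), where the pancreas list was at 92.8 FPKM.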

How the results depend on the processing

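Among the members named for feeding in WT, the differences of 3 changed sign. Changes of sign were not counted in the other tested members. After the GC and length correction Rpl14 was at 0.26 and Rpl30 at -0.026, with the replicate block added they were at 0.24 and -0.0076, and without replicate 1 of WT Rpl4 was at -0.17. Among counts of members passing, 154 stayed within 1.5 times the value reported and 33 did not, library removals aside. Without the filter these were 1 for feeding in Bmal1LKO and, for rhythm, 2 in ad libitum WT, 1 in restricted WT, 1 in ad libitum Bmal1LKO and 2 in restricted Bmal1LKO. With median-of-ratios scaling feeding in ReverbLDKO gave 2. With the same FPKM sum it gave 3, ad libitum Bmal1LKO against WT 22 and rhythm in restricted WT 12. With library weights feeding gave 7 in Bmal1LKO, 1 in CryDKO and 29 in ReverbLDKO, genotype 17 in ad libitum Bmal1LKO and 46 in restricted ReverbLDKO, and rhythm 53 and 5 in ad libitum and restricted WT, 4 in restricted Bmal1LKO, 6 and 3 in CryDKO and 1 in restricted ReverbLDKO. Feeding in ReverbLDKO gave 25 with only the groups compared, 0 without time terms and 7 after the GC and length correction. The correction gave 10 for ad libitum Bmal1LKO and 4 for rhythm in restricted WT. Ad libitum Bmal1LKO gave 12 without replicate 1 of WT, 18 without replicate 2, 12 without the library that stands apart and 19 without the libraries with pancreas genes. The last setting also gave 27 for ad libitum ReverbLDKO and 25 and 40 for rhythm in ad libitum and restricted WT.

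The sources used here do not say what the replicate numbers of WT mark. The difference between replicate 1 and replicate 2 was compared between the feedings at 5 times. It correlated at 0.40 at ZT4, 0.63 at ZT8, 0.61 at ZT16, 0.54 at ZT20 and -0.29 at ZT24. Differences between the replicate numbers thus recurred under both feedings at 4 of the 5 times. The main fit holds no term for the replicate number and does not take out such a shared part. With the replicate block, members passing were 41 for feeding in WT, 5, 42 and 45 for ad libitum Bmal1LKO, CryDKO and ReverbLDKO against WT, and 38, 37 and 30 for the restricted contrasts. With the block and the correction, ad libitum Bmal1LKO gave 11.

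Leaving out 1 library at a time gave 40 to 48 for feeding in WT, 0 to 1 in ReverbLDKO and 32 to 40 for its difference between genotypes. The ad libitum contrasts gave 3 to 12 (Bmal1LKO), 31 to 45 (CryDKO) and 38 to 48 (ReverbLDKO), and the restricted ones 32 to 40, 36 to 41 and 25 to 34. Rhythm gave 0 to 21 in ad libitum WT, 0 to 22 in restricted WT and 0 to 1 in restricted CryDKO. Feeding in Bmal1LKO and CryDKO and rhythm in the other mutant groups gave 0 in each. Of the named members' values 871 kept their call and direction, 29 lost the call, 10 gained one and 5 changed sign under the other settings. Depth limits members near 1 FPKM, Rps23 and Rpl27 among them, and says nothing of reads lost to copies.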
